A study of Mus musculus with 16 samples.

Results

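The genes described here are 10 that make, limit or relay vasoactive signals: Nos1, Nos2 and Nos3, Arg1 and Arg2, Ddah1 and Ddah2, Edn1, and Ednra and Ednrb. They were taken by symbol from the 52459 genes of the deposited count table, and all 10 were present. RNA was sequenced from stromal cells sorted from the bone marrow of Townes sickle mice, live single cells without CD45, Ter119 and CD31 and with CD51 and CD140a (PDGFRA). The SS mice were homozygous for the human sickle beta globin (hα/hα::βS/βS), in place of the mouse beta globin genes. The SA mice were their heterozygous controls (hα/hα::βA/βS), so that both genotypes carried human alpha globin and at least 1 sickle allele, and neither was a mouse without the transgenes. No source used here gives age or treatment. There were 4 libraries per genotype, each sequenced on 2 lanes and deposited as 1 column of counts. Nothing in the labels states that the numbered libraries of a genotype came from separate animals, so p-values measure the spread between these libraries. For SS replicate 4 the labels of 1 lane conflict, SS by title but SA by mouse group, and the library was kept in SS.

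Nitric oxide is made from arginine by the 3 nitric oxide synthases, neuronal (Nos1), inducible (Nos2) and endothelial (Nos3). Arginases compete for the same arginine and turn it into ornithine and urea, and the DDAH enzymes break down asymmetric dimethylarginine, a natural inhibitor of the synthases. Nitric oxide relaxes smooth muscle through soluble guanylyl cyclase and cyclic GMP. Endothelin-1, the product of Edn1, acts in the opposite sense on vessel tone: the receptor EDNRA on smooth muscle and stromal cells mediates contraction and growth, and EDNRB also clears the peptide. In sickle cell disease, free hemoglobin consumes nitric oxide, and arginase activity and endothelin-1 are raised in human plasma.

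The sequences around the start sites of the endothelin gene and its receptors are shown because Edn1 was read mainly in a pair of SS libraries and Ednra had the smallest p of the set. Promoters of 6 of the 10 genes were matched by symbol in RefSeq on GRCm38.p6, each with 250 bases before and 50 after the annotated start. Capitals mark matches on either strand to TGACTAA, the form of the AP-1 site in the human endothelin-1 promoter, to the AP-1 consensus TGANTCA, to the GATA motif AGATAA and to the hypoxia response core ACGTG. The 3 windows are Edn1 at chr13:42301226-42301525 on the plus strand, Ednra at chr8:77724403-77724702 on the minus strand and Ednrb at chr14:103843652-103843951 on the minus strand.
Edn1: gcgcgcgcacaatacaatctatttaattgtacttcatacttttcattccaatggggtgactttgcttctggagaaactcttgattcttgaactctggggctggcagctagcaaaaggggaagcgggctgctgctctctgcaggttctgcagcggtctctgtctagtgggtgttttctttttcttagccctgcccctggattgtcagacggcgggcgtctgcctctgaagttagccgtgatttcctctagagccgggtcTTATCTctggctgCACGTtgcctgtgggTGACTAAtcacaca
Ednra: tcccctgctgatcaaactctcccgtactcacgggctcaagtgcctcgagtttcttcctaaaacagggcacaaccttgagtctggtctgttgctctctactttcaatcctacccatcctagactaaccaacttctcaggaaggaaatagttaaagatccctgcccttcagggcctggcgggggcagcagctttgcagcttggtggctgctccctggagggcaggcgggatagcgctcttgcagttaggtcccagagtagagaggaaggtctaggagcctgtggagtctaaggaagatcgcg
Ednrb: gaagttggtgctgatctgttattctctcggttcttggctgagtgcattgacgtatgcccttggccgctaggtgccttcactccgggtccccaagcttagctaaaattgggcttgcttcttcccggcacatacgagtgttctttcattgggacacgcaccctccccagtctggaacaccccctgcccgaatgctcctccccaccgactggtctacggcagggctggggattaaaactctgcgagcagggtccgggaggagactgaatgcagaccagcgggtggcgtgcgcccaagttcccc
The Edn1 window held AGATAA on the minus strand, ACGTG on the minus strand and TGACTAA on the plus strand, with their first bases at 9, 22 and 37 counted from 1 at the annotated start. None overlapped another. Of 27025 promoters of this length, TGACTAA occurred in 2.33%, TGANTCA in 7.93%, AGATAA in 11.4% and ACGTG in 19.7%. The Ednra and Ednrb windows held none of the 4 motifs. These are matches of letters only.

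In GENCODE M21 on GRCm38 all 10 are protein-coding genes. Nos1 spans chr5:117781032-117958840, Nos3 chr5:24364810-24384474 and Nos2 chr11:78920787-78960254. The arginases lie at chr10:24915221-24927484 (Arg1) and chr12:79130777-79156301 (Arg2), and Ddah1 and Ddah2 at chr3:145758675-145894277 and chr17:35059035-35062095. Edn1 spans chr13:42301476-42307990, Ednra chr8:77663031-77724464 and Ednrb chr14:103814625-103844402.

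Total counts ran from 25790675 to 31117007 in SS libraries and from 24797857 to 30305254 in SA libraries. All 10 stromal markers examined were detected in every library, at a summed level of 21036 to 30824 CPM (counts scaled to a library total of 1000000) in SS and 14603 to 31551 CPM in SA. Pdgfra, the gene of CD140a, was at 330 to 480 CPM in SS and 168 to 474 CPM in SA. Transcripts of the gated-out leukocytes were nevertheless present. The 12 pan-leukocyte markers summed to 333 to 2669 CPM in SS and 712 to 4534 CPM in SA, with SS replicate 1 (2669), SA replicate 1 (3993) and SA replicate 2 (4534) the highest. The 12 pericyte and smooth muscle markers summed to 1314 to 6589 CPM in SS and 671 to 858 CPM in SA. In bulk samples of this kind, fewer cells of a type and less RNA per cell cannot be told apart. SS replicate 2 differed from the other 7 libraries in sex-linked genes, with 57347 counts of Xist (no more than 420 elsewhere) and 12 of the Y-linked Ddx3y (no fewer than 2282 elsewhere), while sex is not labelled.

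Between the genotypes, none of the 6 genes abundant enough to be tested (Arg1, Arg2, Ddah1, Ddah2, Ednra and Ednrb) passed the edgeR quasi-likelihood test at an adjusted p of 0.05. The background was 0 of 17316 genes, or 0%, and 0.016% with no low-count filter, where none of the 10 passed either. At an unadjusted p under 0.05 there was 1 of the 6, Ednra, against 6.98% of all genes tested. DESeq2 called none of the genes to which it gave an adjusted p (Arg1, Arg2, Ddah1, Ddah2, Edn1 and Ednra), against 1.62% of all such genes. Nor did the 4 SS libraries lie wholly above or wholly below the 4 SA libraries for any of the 6, where 2.36% of all genes tested lay wholly above and 1.55% wholly below. 4 of the 6 had a positive and 2 a negative log2 fold change of SS over SA, with a median of 0.63, where 49% of all genes tested were positive and their median was -0.01. The remaining 4 genes (Nos1, Nos2, Nos3 and Edn1) had too few counts for the test and are described by their counts.

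SS replicate 4, with its conflicting labels, and SS replicate 2, with its sex-linked transcripts, were each left out in turn. Without SS replicate 4 the log2 fold changes were -0.19 for Arg1, -1.84 for Arg2, -0.06 for Ddah1, 0.18 for Ddah2, 0.83 for Ednra and 1.75 for Ednrb. Without SS replicate 2 they were -0.57 for Arg1, -1.63 for Arg2, 1.98 for Ddah1, 0.20 for Ddah2, 0.80 for Ednra and 1.71 for Ednrb. Only the sign of Ddah1 depended on either of these libraries, and none of the 6 passed the test without them.

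**Figure D1:**
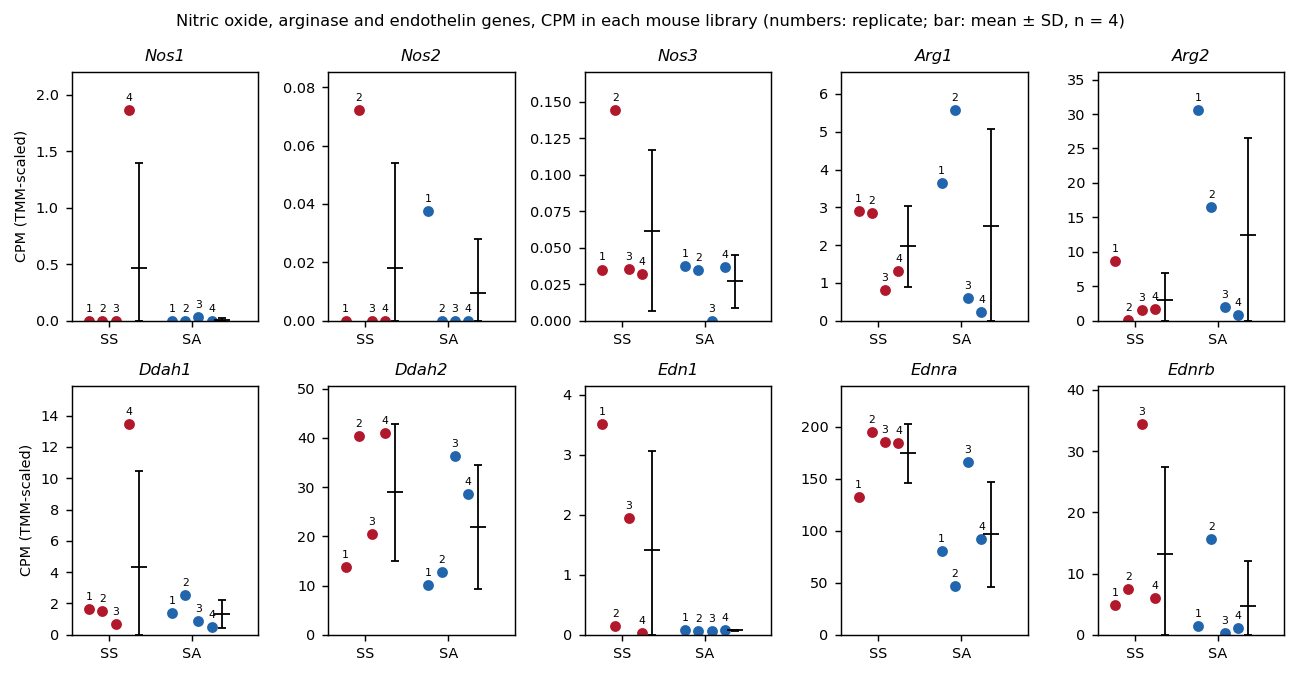
CPM of each of the 10 genes (vertical axes, linear, scaled separately per gene) in the 4 SS and 4 SA libraries, with replicate numbers beside the points and bars for the mean ± SD cut at 0. Ednra was high in all 4 SS libraries and in SA replicate 3, whereas Nos1, Ddah1 and Ednrb each had 1 SS library far above the rest.

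The nitric oxide synthases were close to absent in both genotypes, except for Nos1 in SS replicate 4. Nos2, the inducible enzyme of macrophages, had 0, 2, 0 and 0 counts in SS replicates 1 to 4, against 1, 0, 0 and 0 counts in SA replicates 1 to 4. Nos3, the enzyme of blood vessel lining, had 1, 4, 1 and 1 counts in SS replicates 1 to 4, against 1, 1, 0 and 1 counts in SA replicates 1 to 4. A count of 0 allows a level of up to 0.0965 to 0.112 CPM in these libraries (3 counts, counting error only), and for these 2 genes only the 4 counts of Nos3 in SS replicate 2 were above that. The ratios of summed counts, SS over SA, were 1.95 (95% exact conditional interval 0.102 to 115) for Nos2 and 2.28 (0.519 to 13.6) for Nos3, so that a difference was not detectable at this depth.

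Nos1, the neuronal enzyme, differed in 1 library. It had 0, 0, 0 and 58 counts in SS replicates 1 to 4, against 0, 0, 1 and 0 counts in SA replicates 1 to 4. The 58 counts in SS replicate 4 correspond to 1.87 CPM (95% exact Poisson interval 1.42 to 2.41). The other 7 libraries were all at 1 count or none. The same library stood apart in other genes: Rgs5, a pericyte gene, reached 4985 CPM, no other library exceeding 1085 CPM, and Cdh19, a Schwann cell marker, was at 2.41 CPM, with 1 count in 1 of the other 7 libraries. The Schwann cell transcription factor gene Sox10 was at 0.03 CPM in it. The part of other cell types in the Nos1 reads was not tested.

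Of the arginases, Arg2, the mitochondrial enzyme, had the higher mean per kilobase of exon in both genotypes. It was at 8.71, 0.0722, 1.62 and 1.70 CPM in SS replicates 1 to 4, against 30.6, 16.6, 1.94 and 0.807 CPM in SA replicates 1 to 4. SA replicates 1 and 2 were highest, SS replicate 2 was nearly empty with 2 counts, and the genotypes overlapped. The means were 3.03 ± 3.86 CPM in SS and 12.5 ± 14.1 CPM in SA (SD, n = 4 each), with a log2 fold change of -2.04 (SE 1.29, edgeR adjusted p = 0.766). The 3 libraries with the most Arg2 were the 3 with the most leukocyte transcripts, and the 12 neutrophil markers summed to 15367 CPM in SS replicate 1, 26700 CPM in SA replicate 1 and 31925 CPM in SA replicate 2. SS replicate 2 had 3680 CPM of neutrophil markers with almost no Arg2, and SS replicate 4 had 1244 CPM with 1.70 CPM of Arg2. With the summed pan-leukocyte level as a covariate the log2 fold change of Arg2 was 0.30, and leaving out SS replicate 1, SA replicate 1 and SA replicate 2, the leukocyte-rich libraries, gave -0.27.

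Arg1, the cytosolic arginase of liver and of alternatively activated macrophages, was low in every library. It was at 2.92, 2.85, 0.811 and 1.32 CPM in SS replicates 1 to 4, against 3.64, 5.58, 0.601 and 0.220 CPM in SA replicates 1 to 4. The SA libraries spanned the SS libraries on both sides. The log2 fold change was -0.35 (SE 1.07, edgeR adjusted p = 0.968), and leaving out the same 3 libraries gave 2.0. Within a library, Arg2 exceeded Arg1 per kilobase of exon by 4.66-, 3.12- and 2.02-fold in SS replicates 1, 3 and 4, with a ratio of 0.0395 in SS replicate 2, and by 4.63- to 13.1-fold in SA. The lowest SA ratio lay below the highest SS ratio.

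The DDAH enzymes were unequal. Per kilobase of exon, Ddah2 was the second most abundant of the 10 genes in all 4 SS libraries, although in CPM Ednrb exceeded it in SS replicate 3. Ddah2 was at 13.8, 40.4, 20.5 and 41.1 CPM in SS replicates 1 to 4, against 10.2, 12.7, 36.3 and 28.7 CPM in SA replicates 1 to 4. Each genotype had high and low libraries, and SA replicates 1 and 2 were the lowest. The means were 28.9 ± 13.9 CPM in SS and 22.0 ± 12.6 CPM in SA (SD, n = 4 each), with a log2 fold change of 0.40 (SE 0.50, edgeR adjusted p = 0.893) that was -0.40 with the leukocyte covariate.

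Ddah1 was at 1.65, 1.52, 0.670 and 13.5 CPM in SS replicates 1 to 4, against 1.39, 2.56, 0.868 and 0.514 CPM in SA replicates 1 to 4. Only SS replicate 4 lay above the SA libraries. The log2 fold change was 1.70 (SE 1.09, edgeR adjusted p = 0.768), and without SS replicate 4 it was -0.06. In that library the pericyte and smooth muscle markers summed to 6589 CPM, above SS replicates 1 to 3 (1314 to 1836 CPM) and SA (671 to 858 CPM). Rgs5 alone made up 4985 CPM of that sum. Of the listed markers, Des was highest in SS replicate 3 and Higd1b and Cnn1 in SA replicate 4, and the rest were highest in SS replicate 4. The part of pericytes and smooth muscle cells in the Ddah1 level was not tested. Per kilobase of exon, Ddah2 exceeded Ddah1 by 7.62-fold in SS replicate 4, by 20.9- to 76.5-fold in the other SS libraries, and by 12.4- to 139-fold in SA.

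Edn1, which encodes the endothelin-1 precursor, had 100, 4, 55 and 1 counts in SS replicates 1 to 4, against 2, 2, 2 and 2 counts in SA replicates 1 to 4. In CPM that was 3.51, 0.144, 1.94 and 0.0322 in SS replicates 1 to 4, against 0.0668 to 0.0750 in SA. SS replicates 1 and 3 stood above all other libraries, SS replicate 2 lay slightly above the SA libraries and SS replicate 4 below them. The summed counts were 160 in SS and 8 in SA, a ratio of 19.5 (95% exact conditional interval 9.66 to 45.9, counting error only), carried by those 2 libraries. DESeq2, which tested Edn1, gave an adjusted p of 0.0789, and edgeR with no low-count filter an adjusted p of 0.484. Endothelial cells are the main source of endothelin-1 in vessels. The 14 endothelial markers summed to 294, 108, 96.3 and 91.0 CPM in SS replicates 1 to 4, against 225, 151, 81.4 and 86.7 CPM in SA replicates 1 to 4. All 14 had counts in SS replicate 1 and in SA replicates 1 and 2, while Cldn5 was at 0 in SS replicates 2, 3 and 4 and in SA replicate 3, and Stab2 in SA replicate 4. SA replicate 1, second highest for the sum, had 2 counts of Edn1. In SS replicate 3, Stab2 (9.41 CPM), Erg (14.7 CPM), Pecam1 (4.76 CPM) and Tek (1.30 CPM) were above SS replicates 2 and 4. Cdh5 (0.176 CPM), Kdr (0.0352 CPM), Emcn (4.51 CPM), Vwf (0.634 CPM) and Plvap (0.106 CPM) were below both, and the remaining markers were neither. The part of endothelial cells in the Edn1 level was not tested.

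Ednra, the endothelin receptor of smooth muscle and mesenchymal cells, was the most abundant of the 10 genes and had the smallest p. It was at 132, 195, 185 and 184 CPM in SS replicates 1 to 4, against 80.2, 47.3, 166 and 92.1 CPM in SA replicates 1 to 4. 3 SS libraries were above every SA library, and SS replicate 1 lay below SA replicate 3. The means were 174 ± 28.5 CPM in SS and 96.5 ± 50.3 CPM in SA (SD, n = 4 each), with a log2 fold change of 0.85 (SE 0.34, unadjusted p = 0.0280, edgeR adjusted p = 0.695). Among all genes tested in a library, Ednra ranked at the 93.6 to 95.9 percentile in SS and at the 78.3 to 95.3 percentile in SA. Its lowest values, in SA replicates 2 and 1, were in the libraries with the most leukocyte transcripts and the least stromal marker RNA (14603 and 20275 CPM). With the leukocyte covariate the log2 fold change was 0.54 (unadjusted p = 0.115, edgeR adjusted p = 0.973). It was also 0.54 without SS replicate 1, SA replicate 1 and SA replicate 2. It was positive in each of 16 alternative analyses, from 0.54 to 1.24, and past the threshold in none of them (adjusted p from 0.341 to 0.973).

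Ednrb, the receptor that also clears endothelin, was lower and more variable. It was at 4.78, 7.48, 34.4 and 6.05 CPM in SS replicates 1 to 4, against 1.5, 15.7, 0.234 and 1.14 CPM in SA replicates 1 to 4. All 4 SS libraries were above 3 of the SA libraries, and SA replicate 2 was above 3 of the SS libraries. The log2 fold change was 1.51 (SE 1.14, edgeR adjusted p = 0.798), 0.40 without SS replicate 3 and 3.78 without SA replicate 2 (edgeR adjusted p = 0.808). With the leukocyte covariate it was 3.59 (unadjusted p = 0.0320, edgeR adjusted p = 0.921), and leaving out SS replicate 1, SA replicate 1 and SA replicate 2 gave 4.54 (unadjusted p = 0.00623, edgeR adjusted p = 0.709). Of the 12 macrophage markers, Cd163, Vsig4, Mrc1, C1qa, C1qb and Cd5l had the same 2 highest libraries as Ednrb. Adgre1, Csf1r, Cd68, C1qc, Mertk and Lyz2 did not. Cd163 was at 24.2, 3.65, 70.9 and 4.95 CPM in SS replicates 1 to 4, against 12.9, 51.7, 17.2 and 9.65 CPM in SA replicates 1 to 4, and Vsig4 reached 12.0 CPM in SS replicate 3, 4.33 CPM in SA replicate 2 and no higher than 0.750 CPM elsewhere. The summed level of all 12 macrophage markers did not have that order. The sums were 3098, 631, 2059 and 417 CPM in SS replicates 1 to 4 and 3844, 4389, 1571 and 792 CPM in SA replicates 1 to 4. Lyz2 was the largest part of each sum, so the sums do not show the order of the remaining markers. It was at 2510, 435, 988 and 220 CPM in SS replicates 1 to 4, against 3401, 3639, 1312 and 617 CPM in SA replicates 1 to 4. The part of macrophages in the Ednrb level was not tested. Per kilobase of exon, Ednra exceeded Ednrb in every library, by 4.19- to 23.8-fold in SS and by 2.35- to 555-fold in SA.

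**Figure D2:**
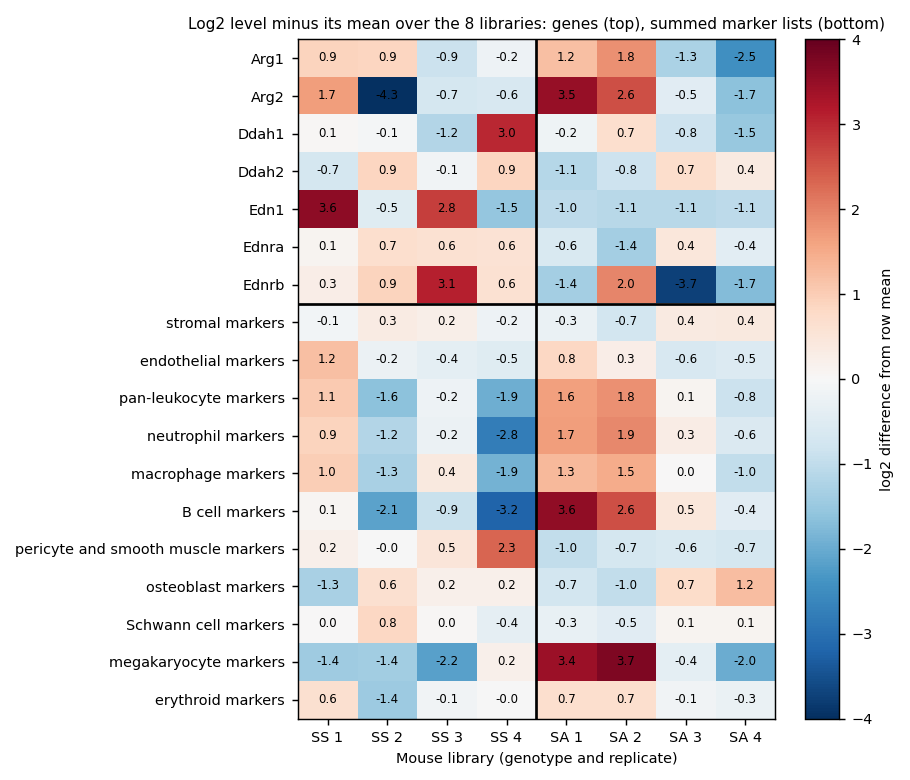
Log2 level in each library minus the mean over the 8 libraries, for 7 of the genes (log2 CPM with a prior count of 2, upper rows) and for the summed CPM of 11 marker lists (lower rows), with the SS libraries left of the SA libraries. Arg2 was highest in SS replicate 1, SA replicate 1 and SA replicate 2, as were the pan-leukocyte markers, while Ddah1 and the pericyte markers were both highest in SS replicate 4.

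Set per kilobase of exon so that genes can be compared, the levels in SS ran in the order Ednra (31.8 ± 5.21), Ddah2 (18.2 ± 8.74), Ednrb (3.09 ± 3.33), Arg2 (2.12 ± 2.71), Ddah1 (1.09 ± 1.53), Arg1 (0.886 ± 0.481) and Edn1 (0.658 ± 0.773), in CPM per kilobase (SD, n = 4). In SA the order was Ednra (17.6 ± 9.19), Ddah2 (13.8 ± 7.90), Arg2 (8.74 ± 9.84), Arg1 (1.13 ± 1.15), Ednrb (1.09 ± 1.73), Ddah1 (0.335 ± 0.225) and Edn1 (0.0332 ± 0.00176). The synthases were last in both, at means of at most 0.0418 in SS and 0.00659 in SA. Neighbours in these orders overlapped in range between libraries, except Ddah2 and Ednrb in SS, and Ddah1 and Edn1, and Edn1 and the synthases, in SA. Ednra and Ddah2 held the first 2 places in all 4 SS libraries and in SA replicates 3 and 4, while Arg2 was first in SA replicates 1 and 2.

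For each tested gene the 3 named genes with the most similar pattern of log2 CPM over the 8 libraries were found among 13507. All points share the same libraries and scaling, and with so many candidates high values of Pearson's r arise readily. For Ednra these were Tyw3 (r = 0.987), Amotl1 (0.982) and Ankrd13b (0.974), and for Ednrb Trappc11 (r = 0.948), Nde1 (0.941) and Epg5 (0.939). For Arg2 they were Apaf1 (r = 0.987), Atp6v1b2 (0.982) and Klf3 (0.982), and for Arg1 Ehd4 (r = 0.965), Larp4b (0.961) and Abhd5 (0.949). Ddah2 was most similar to Tbx2 (r = 0.981), Hacd1 (0.974) and Atp5j (0.971), and Ddah1 to Ctdnep1 (r = 0.934), Pdgfb (0.931) and Faap100 (0.926). Amotl1, a junction protein of the angiomotin family, was at 169 to 317 CPM in SS and at 55.5 to 292 CPM in SA. Pdgfb, the ligand that recruits pericytes, reached 11.9 CPM in SS replicate 4, where no other library exceeded 1.25 CPM.

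Genes around these 10 were grouped by role into 6 lists of 86 genes, of which 75 were tested. None of the 75 passed the edgeR test (adjusted p from 0.520 to 0.997). At an unadjusted p under 0.05, 10 were higher in SS, against 4.03% of all genes, and 1 was lower, against 2.96%. DESeq2 called 2, Gucy1a2 and Rgs5, against 1.62% of all genes to which it gave an adjusted p.

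The list of nitric oxide receptor, cyclic GMP and nitrosothiol genes, which also holds the natriuretic peptide receptors Npr1, Npr2 and Npr3, had the highest median of the 6. Of 13 tested, 10 had a higher and 3 a lower level in SS (median log2 fold change 0.57, against -0.01 over all genes tested), and 4 had an unadjusted p under 0.05. Gucy1a2, the alpha 2 subunit of the nitric oxide receptor soluble guanylyl cyclase, was at 9.63, 7.37, 7.15 and 19.3 CPM in SS replicates 1 to 4, against 0, 0, 1.001 and 0.294 CPM in SA replicates 1 to 4. Every SS library was above every SA library, with a log2 fold change of 5.04 (SE 1.35, edgeR adjusted p = 0.595, DESeq2 adjusted p = 0.00347). Without any 1 library the value ran from 4.61 to 6.74, and with the leukocyte covariate it was 4.61.

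The more abundant subunits of the same enzyme overlapped between genotypes. Gucy1a1 (listed as Gucy1a3), the alpha 1 subunit, was at 83.3, 116, 154 and 217 CPM in SS replicates 1 to 4, against 54.2, 57.8, 90.4 and 81.6 CPM in SA replicates 1 to 4 (log2 fold change 1.004, SE 0.31, edgeR adjusted p = 0.662). Gucy1b1 (listed as Gucy1b3), the beta 1 subunit that both alpha subunits pair with, averaged 24.04 ± 15.5 CPM in SS and 11.7 ± 6.92 CPM in SA (SD, n = 4 each; log2 fold change 1.03, SE 0.56). Downstream of them, Prkg1, the cyclic GMP-dependent kinase of smooth muscle, averaged 47.6 ± 20.9 CPM in SS and 23.5 ± 6.59 CPM in SA. Pde5a, which degrades cyclic GMP, averaged 140 ± 22.1 CPM in SS and 93.8 ± 26.8 CPM in SA. Vasp, a substrate of the kinase, had a log2 fold change of -0.69 (SE 0.41). With the leukocyte covariate the median of this list was 0.01, and it was 0.51 when SS replicate 1, SA replicate 1 and SA replicate 2 were left out. SS replicate 4 was highest for Gucy1a1, Gucy1a2, Gucy1b1 and Prkg1. It also had the highest sum of pericyte and smooth muscle markers, most of it Rgs5, and the part of pericytes was not tested.

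**Figure D3:**
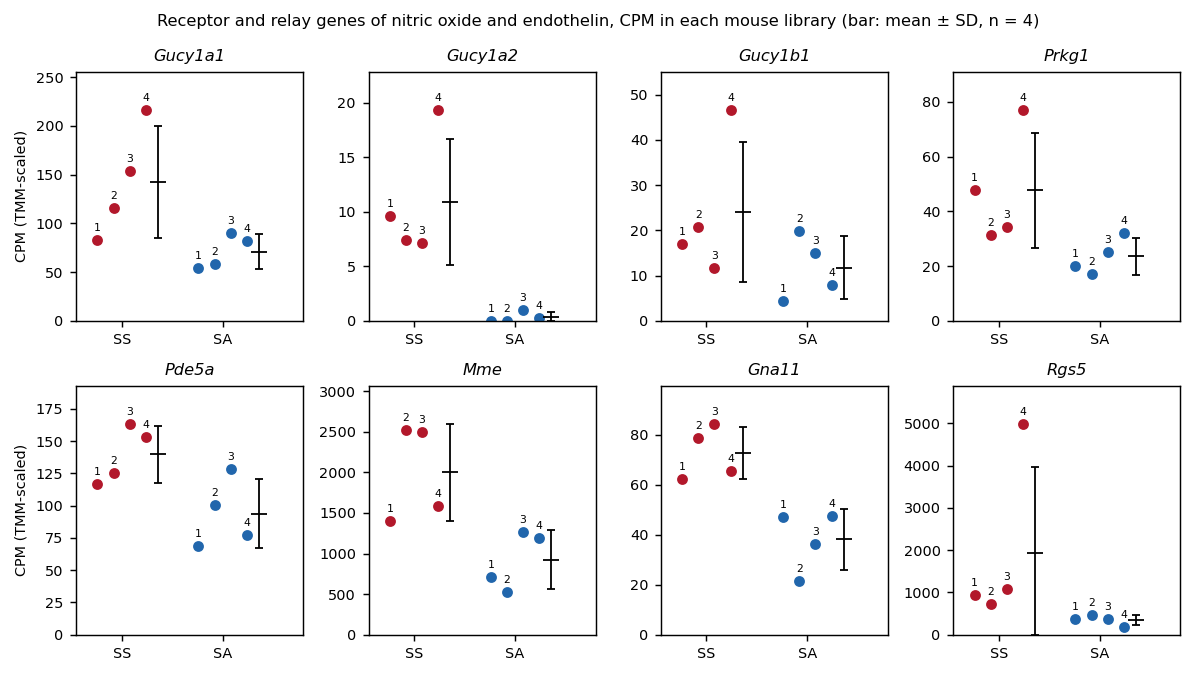
CPM of 8 receptor and relay genes (vertical axes, linear, scaled separately per gene) in the 4 SS and 4 SA libraries, with bars for the mean ± SD cut at 0. All 4 SS libraries lay above all 4 SA libraries for Gucy1a2, Mme, Gna11 and Rgs5, while the other 4 genes overlapped.

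In the endothelin list 12 of 17 tested genes had a higher and 5 a lower level in SS (median 0.35). The other endothelins, Edn2 and Edn3, had no count in any library, while Ece1, the enzyme that releases active endothelin, averaged 270 ± 71.9 CPM in SS and 203 ± 76.8 CPM in SA (SD, n = 4 each). Mme, the surface peptidase neprilysin that degrades endothelin-1 among other peptides, was at 1397, 2527, 2499 and 1583 CPM in SS replicates 1 to 4, against 708, 531, 1268 and 1193 CPM in SA replicates 1 to 4 (log2 fold change 1.11, SE 0.32, edgeR adjusted p = 0.628). Gna11, a G protein alpha subunit through which endothelin receptors activate phospholipase C, averaged 72.6 ± 10.5 CPM in SS and 38.1 ± 12.1 CPM in SA (log2 fold change 0.93, SE 0.28, edgeR adjusted p = 0.656). Rgs5, which shortens such signals, averaged 1931 ± 2042 CPM in SS and 346 ± 111 CPM in SA, and is itself one of the pericyte markers. Its log2 fold change was 2.48 (SE 0.60, edgeR adjusted p = 0.520, DESeq2 adjusted p = 0.0124) and 1.40 without SS replicate 4. Mme, Gna11 and Rgs5 did not overlap between genotypes, 3 of 17 against 2.36% of all genes tested.

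Arginine supply gave values in both directions (5 of 8 higher and 3 lower, median 0.22). Slc7a2, a transporter that brings arginine into cells, averaged 109 ± 38.5 CPM in SS and 51.4 ± 27.8 CPM in SA (SD, n = 4 each; log2 fold change 1.09, SE 0.42, edgeR adjusted p = 0.695). Ass1 and Asl, which rebuild arginine from citrulline, had log2 fold changes of -1.37 (SE 0.80) and -0.93 (SE 0.59). Ass1 was at 4.81, 0.397, 5.43 and 1.25 CPM in SS replicates 1 to 4, against 9.52, 7.86, 7.38 and 5.91 CPM in SA replicates 1 to 4, so that every SS library was below every SA library. It was the only tested gene of the 6 lists in that position, 1 of 75 against 1.55% of all genes tested.

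Among partners of the synthases 7 of 14 had a higher and 7 a lower level in SS (median -0.01). Cav1, the caveolar protein that binds and restrains the endothelial synthase, was at 22.2, 4.19, 3.84 and 56.5 CPM in SS replicates 1 to 4, against 1.57, 0.658, 5.91 and 3.85 CPM in SA replicates 1 to 4 (log2 fold change 2.85, SE 0.97, edgeR adjusted p = 0.695). SS replicates 1 and 4 were high and the other libraries overlapped. Without SS replicate 4 its value was 1.75. Of the enzymes of the cofactor tetrahydrobiopterin, Gch1, the first step, averaged 3.70 ± 2.60 CPM in SS and 3.04 ± 2.27 CPM in SA, and Spr, the last step, had a log2 fold change of 0.76 (SE 0.46). Methyltransferases that make methylarginines were divided, 3 of 6 higher and 3 lower (median -0.06), with Prmt3 at -0.67 (SE 0.36) on the log2 scale. Prmt1, the main source of asymmetric dimethylarginine, averaged 31.6 ± 8.62 CPM in SS and 24.7 ± 8.67 CPM in SA.

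Downstream of arginase 7 of 17 genes had a higher and 10 a lower level in SS (median -0.14). Odc1, which turns ornithine into the polyamine putrescine, averaged 41.6 ± 12.1 CPM in SS and 68.0 ± 22.4 CPM in SA (SD, n = 4 each; log2 fold change -0.71, SE 0.32, edgeR adjusted p = 0.704), and it was the only gene of the 6 lists that was lower at an unadjusted p under 0.05. Sat1, the acetyltransferase that marks polyamines for export, was at -0.76 (SE 0.36) and Pycr1, an enzyme of proline synthesis, at -1.39 (SE 0.65) on the log2 scale. Leaving out SS replicate 1, SA replicate 1 and SA replicate 2 gave -0.29 for Odc1, -0.315 for Sat1 and -1.84 for Pycr1.

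**Figure D4:**
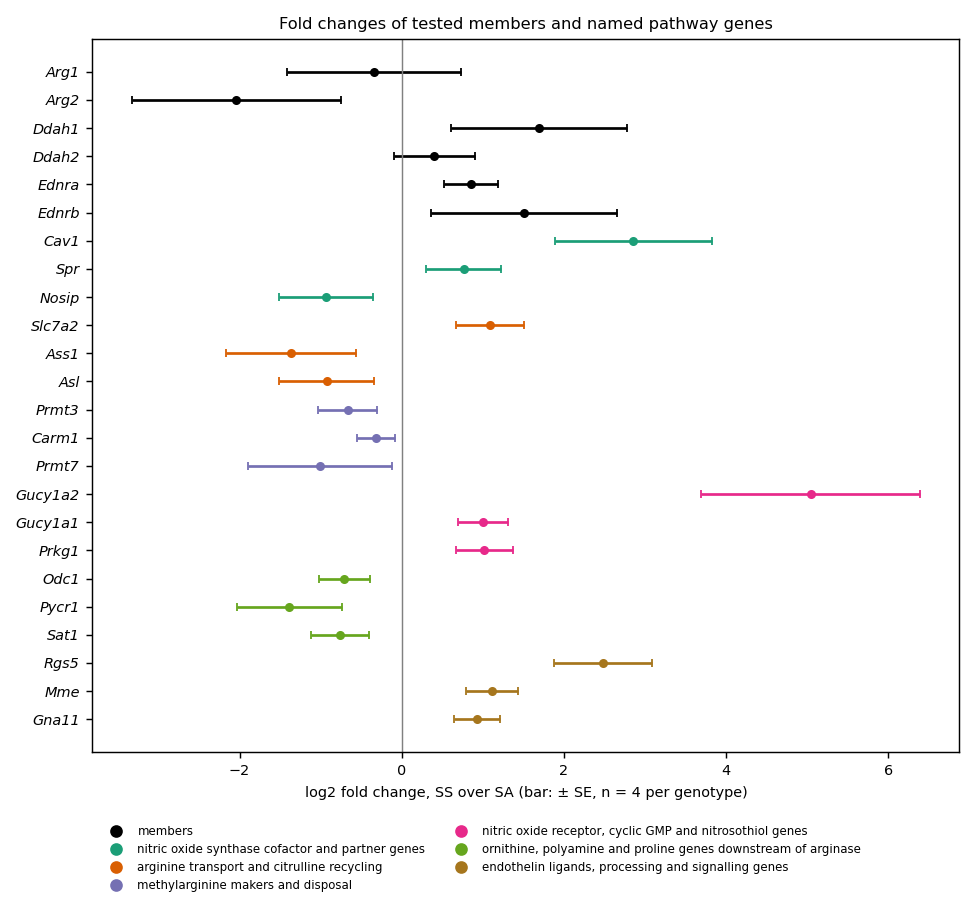
Log2 fold change of SS over SA with its SE (horizontal axis) for the 6 tested genes of the set and for the 3 genes with the smallest p in each of the 6 role lists, coloured by list. Gucy1a2 (5.04) lay farthest above 0 and Arg2 (-2.04) farthest below, and none of the 24 passed the edgeR test.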

How the data were processed

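RNA was measured in 8 mouse libraries, 4 SS and 4 SA, listed in the labels as 16 samples (2 lanes each). The deposited values are raw counts of reads, by gene symbol. Per the submitters' processing notes, tools were DESeq2, featureCounts, STAR and bcl2fastq and builds GRCm38 and mm10. No source used here gives versions, annotation or strandedness, so a gene and its antisense neighbour may share reads. Arg2 overlaps the locus of Vti1b in this way (588 to 1116 counts per library, with 2 to 816 for Arg2). Ednra likewise overlaps 4933431K23Rik (42 to 288 counts per library) and Nos3 overlaps Atg9b (0 to 16 counts). Ddah1 overlaps Rpl36a-ps2 on the same strand (128 to 217 counts, with 14 to 419 for Ddah1). Nos1 and Edn1 also overlap other loci. The part of shared reads in the levels of these genes was not tested. The deposited table of normalized values was not used.

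Counts were tested with edgeR 4.0.16 (R 4.3.3; filterByExpr, TMM factors, robust quasi-likelihood F test, Benjamini-Hochberg adjustment over 17316 genes, threshold 0.05). CPM are counts over TMM-scaled totals. SE is the fold change over the root of F. Alternatives used DESeq2 1.42.0, limma-voom (limma 3.58.1), other scaling or filtering, the replicate number as a block, a leukocyte covariate and left-out libraries. The columns carry date-like numbers of unstated meaning, 1 shared by all SA libraries, another by SS replicates 1, 3 and 4, and a different one on SS replicate 2 alone, the library that also differs in Xist and Ddx3y, so what they stand for cannot be told apart from genotype. Exon lengths are unions of GENCODE M21 exons on GRCm38, and promoters are from RefSeq. The scripts were tested on simulated data.

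The members, lists and alternatives were chosen with earlier results of these data known. All 10 members are named whatever their values, with up to 3 genes of smallest p per list, genes named for their role, and the 3 most similar genes per tested member. Intervals and floors cover counting error alone, as reads lacking molecular identifiers may be copies of 1 molecule.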

Additional observations from a re-analysis of the deposited data

Results flagged for a closer look

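A library was listed here where its value was separated from the other 3 of its genotype by a gap too large for the group's range under Dixon's criterion for 4 samples. 56 groups of 4 were examined and 11 met it. The chance rate of the criterion, about 1 in 20, is not a fair comparison here. A group with counts in 1 library and none in the other 3 meets the criterion at any count, as Nos1 and Nos2 did in both genotypes.

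In SS replicate 4, Nos1 was at 1.87 CPM with the other SS libraries at 0, Ddah1 at 13.5 CPM with the next SS library at 1.65, and Rgs5 at 4985 CPM with the next at 1085. Ednrb was at 34.4 CPM in SS replicate 3, the next SS library being at 7.48, and at 15.7 CPM in SA replicate 2, the next SA library being at 1.5. Pycr1 was at 1.87 CPM in SA replicate 1, below 12.7 CPM in the nearest SA library. The other 5 rest on at most 4 counts: Nos1 at 0.0334 CPM in SA replicate 3, Nos2 at 0.0722 CPM for SS replicate 2 and 0.0375 CPM for SA replicate 1, and Nos3 at 0.144 CPM for SS replicate 2 and 0 CPM for SA replicate 3.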

How the results depend on the processing

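In 16 alternative analyses none of the 10 genes passed the threshold. Of the 6 role lists 2 genes (Gucy1a2 and Rgs5) passed with DESeq2 and none otherwise, and over all genes 315 passed with DESeq2, 5 with no low-count filter, and 0 to 1 with each library left out (1 without SS replicate 1). Ednra and Ednrb kept a positive log2 fold change throughout. Arg1 had no stable sign, at 0.40 with limma-voom, 0.34 with the replicate block, 1.60 with the leukocyte covariate, 2.0 without SS replicate 1, SA replicate 1 and SA replicate 2, and -0.72 to 0.41 with each library left out. The leukocyte covariate turned Arg2 to 0.30 and Ddah2 to -0.40, and brought the median of the nitric oxide receptor, cyclic GMP and nitrosothiol list to 0.012. With each library left out Arg2 ran from -3.45 to -1.09, Ddah1 from -0.055 to 2.23, Ddah2 from 0.15 to 0.74, Ednra from 0.63 to 1.24 and Ednrb from 0.40 to 3.78, with 4.54 when SS replicate 1, SA replicate 1 and SA replicate 2 were left out together. Nosip turned to 0.077 without those 3 libraries. The cause of these shifts was not tested. Same-numbered libraries deviated together in some pairs only (r = 0.22, -0.15, -0.02 and 0.14), so the numbers were not taken to pair them. With the replicate block Ddah1 was at 0.62 and Ednra at 0.98, and no call changed. For Nos1, Nos2, Nos3 and Edn1 a fold change could be fitted only with no low-count filter or by DESeq2. Counts of 0 to 4 limit what can be said of the synthases, except for Nos1 in SS replicate 4 (58 counts).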
